A study of Mus musculus with 72 samples.

Results

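Muscle-specific Bmal1 knockout mice (mKO) and control littermates (Ctrl) were compared in the tibialis anterior (TA), a fast lower-leg muscle, at Zeitgeber time 20 (ZT20), late in the dark phase, when mice are active. The comparison rests on the 6 TA arrays that the labels place at ZT20, 3 mKO and 3 Ctrl, of 72 arrays in all. The whole study measured TA and the slow soleus (SOL) of 36 male C57BL/6 mice aged 5 months, at 6 times 4 h apart. In mKO animals a Cre transgene under the Mlc1f promoter, the fast myosin light chain promoter that is active in muscle fibres, acted on floxed Bmal1. Ctrl animals were Cre-negative littermates, so an effect of Cre itself and one of the loss of Bmal1 cannot be told apart. All animals lived at 22°C in 12 h of light from ZT0 and 12 h of dark from ZT12 with standard chow and water freely available, and the muscles were snap frozen.

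Bmal1 (gene symbol Arntl) encodes a transcription factor of the circadian clock. With a partner, CLOCK or NPAS2, it binds E-box sequences and drives its own repressors, the Period and Cryptochrome genes, the nuclear receptors Nr1d1 and Nr1d2 (REV-ERB alpha and beta), and transcription factors of the PAR bZIP family such as Dbp, which bind D-boxes. The REV-ERB receptors repress Arntl, Npas2 and other genes, and the ROR receptors activate them. In skeletal muscle the clock sets a daily rhythm in genes of fuel use, contraction and growth.

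Signals are on a log2 scale, so that a difference of 1 is a 2-fold difference, and each gene was read by 1 probe set. The 6 arrays had medians of 6.70 to 6.76 and correlated with r = 0.993 to 0.995 within a genotype and 0.991 to 0.993 between genotypes. The 12 skeletal muscle fibre markers were at a mean signal of 13.5 on each of the 6 arrays, and none differed between genotypes. The animals carried identification numbers of several series whose meaning the labels do not give. At ZT20 all 3 mKO animals were of series BM2 and all 3 Ctrl animals of series BM3, so genotype and series cannot be told apart from these 6 arrays alone. The other times bear on this: at ZT0 and ZT4 every animal of both genotypes was BM3, and at ZT12 none was. Nothing in the labels says more of the replicates than that they are separate animals, which number 3 per group and limit the precision.

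Of 20239 named genes, 402 (1.99%) differed between mKO and Ctrl TA at ZT20 at an adjusted p under 0.05, by limma on all 36 TA arrays with Benjamini-Hochberg adjustment over all genes. In mKO 165 were higher (0.815%) and 237 were lower (1.17%). The median difference of the called genes was 0.56 among those higher and -0.54 among those lower, and 25 were more than 2-fold higher and 34 more than 2-fold lower. The 6 arrays did not overlap between genotypes for any of the 402, where 3689 of all genes (18.2%) did not overlap. With the animal series as a term in the fit, which is estimated from the other times, 92 genes (0.455%) were called, 84 of them among the 402, and all 402 kept their sign. The term raised the median standard error (SE) from 0.122 to 0.205. No gene differed between BM2 and BM3 in that fit, with 1678 at an unadjusted p under 0.05. No group of the same genotype and time held both series, so this contrast ran through a further series, BM2*. BM2 stood beside BM2* at ZT12 only, and BM2* beside BM3 at ZT8 and in Ctrl at ZT16. The lack of calls therefore does not show that the series are alike. In whole-muscle RNA, fewer cells of a type and less RNA per cell cannot be told apart.

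**Figure D1:**
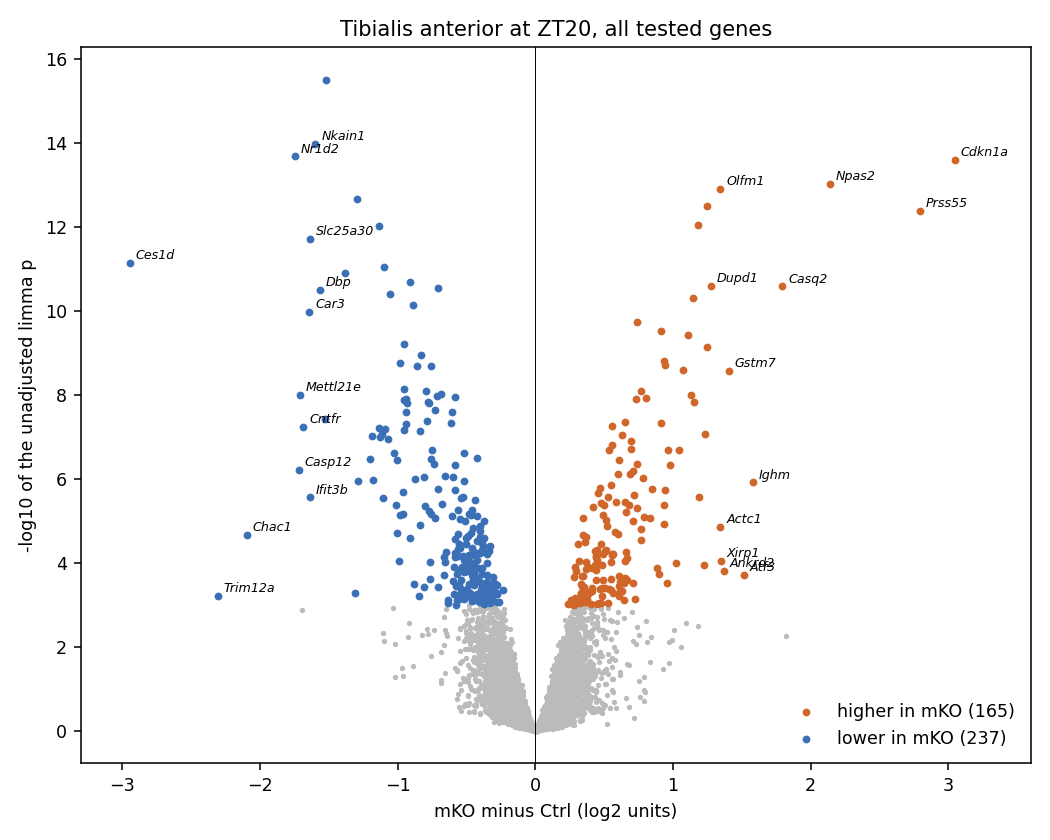
Each point is 1 of 20239 genes in TA at ZT20, with the difference mKO minus Ctrl in log2 units on the horizontal axis and -log10 of the unadjusted limma p on the vertical axis. The 165 genes called higher and 237 called lower are coloured, and the 12 largest in each direction are named, from Cdkn1a at 3.05 to Ces1d at -2.95.

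The targeted gene comes first. Arntl read 8.44, 8.48 and 8.37 in mKO and 8.48, 8.74 and 8.64 in Ctrl. The groups overlapped and did not pass the test (-0.19, SE 0.14, limma adjusted p = 0.864). At the other times the difference ran from -0.90 at ZT0 to 0.70 at ZT12. The labels do not say whether the Arntl probe set reads the floxed part of the gene, so its signal does not check the deletion.

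Among the partners and activators of the clock, Npas2 was the gene with the third largest rise of all. Its 3 mKO arrays read 8.40, 8.70 and 8.85, and its Ctrl arrays 6.29, 6.59 and 6.65. Every mKO array lay above every Ctrl array by a wide margin, which gave a 4.41-fold higher level (2.14, SE 0.16, limma adjusted p = 3.86e-10). Clock, the usual partner of BMAL1, read 9.57, 9.86 and 9.79 in mKO and 8.89, 9.21 and 8.96 in Ctrl. It was 1.64-fold higher (0.72, SE 0.12, adjusted p = 0.000425), again without overlap. Rora, a receptor that activates Arntl, was lower by 0.71 on the log2 scale (9.94 ± 0.09 against 10.65 ± 0.13, SD, n = 3 each, limma adjusted p = 4.8e-06), whereas Rorb read 5.51 ± 0.11 and 5.49 ± 0.17 and overlapped.

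The repressors of the clock were not alike. Nr1d2, a REV-ERB receptor, read 9.57, 9.11 and 9.12 in mKO against 11.09, 11.01 and 10.93 in Ctrl. It was 3.35-fold lower (-1.74, SE 0.12, adjusted p = 1.27e-10 by limma), and the lowest Ctrl array exceeded the highest mKO array by more than 1 log2 unit. Nr1d1 read 8.79, 8.94 and 9.19 against 9.41, 9.44 and 9.52, a smaller fall of 1.39-fold (-0.48, SE 0.10, adjusted p = 0.00625). Of the Period genes, Per3 was 1.92-fold lower (6.86 ± 0.13 against 7.80 ± 0.12, limma adjusted p = 9.37e-06) and Per2 was 1.27-fold lower (7.11 ± 0.07 against 7.46 ± 0.03, adjusted p = 0.0151). Per1 read 7.81, 7.68 and 7.57 in mKO and 7.94, 7.75 and 7.36 in Ctrl, so the mKO arrays lay inside the range of the Ctrl arrays. Its difference was 0.01, with a 95% interval from -0.31 to 0.32.

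Ciart, which encodes a repressor of CLOCK and BMAL1, also overlapped, at 5.80, 6.32 and 5.97 in mKO and 5.97, 6.21 and 5.97 in Ctrl (-0.02, interval from -0.46 to 0.43). Of the Cryptochromes, Cry1 differed by 0.21 and Cry2 by -0.04, and neither passed the test (limma adjusted p = 0.422 and 0.993). Bhlhe40, an E-box-binding repressor, was 2.02-fold lower (8.25 ± 0.33 against 9.27 ± 0.10, adjusted p = 0.000665), and its relative Bhlhe41 differed by -0.17 and did not pass. Of the 15 measured core clock genes 2 rose, 6 fell and 7 did not pass, with a median difference of -0.17 beside 0.02 over all genes. Over all genes 0.815% were called higher and 1.17% lower. Of 13 kinases and ubiquitin ligases that act on clock proteins, Csnk1e alone was called, lower by 0.30 on the log2 scale. Without 1 array the adjusted p rose to 0.0832 for Nr1d1 (mKO A left out), to between 0.0664 and 0.102 for Per2 (mKO B, mKO C, Ctrl A or Ctrl C) and to between 0.0738 and 0.23 for Csnk1e (mKO B, mKO C, Ctrl A or Ctrl B). In the fit of the 6 arrays alone, Per2, Nr1d1 and Csnk1e also missed the threshold (0.0701, 0.0797 and 0.178). With the series term, Npas2, Clock, Nr1d2 and Rora kept their calls, and Per2, Per3, Nr1d1, Bhlhe40 and Csnk1e did not. The differences of the genes that lost their calls were then -0.24, -0.54, -0.43, -0.84 and -0.31, in the same order.

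The clock output genes were mostly lower. Dbp, the founding PAR bZIP factor, read 7.45, 7.49 and 7.36 in mKO and 9.04, 9.0 and 8.96 in Ctrl. The groups lay 1.56 apart by mean, far more than the arrays of either (2.96-fold lower, SE 0.15, limma adjusted p = 3.19e-08). Its relatives Hlf (7.00, 7.00 and 7.20 against 8.45, 8.43 and 8.47) and Tef (8.91, 8.63 and 8.68 against 9.48, 9.61 and 9.34) fell 2.61-fold and 1.66-fold. Nfil3, which encodes a repressor that binds the same D-boxes as these activators, read 8.88, 9.11 and 9.02 against 8.21, 8.58 and 8.41. The groups did not overlap, but its difference of 0.60 missed the threshold (adjusted p = 0.0665). It passed in 5 other fits by limma: the 6 arrays alone (0.0341), array weights (0.0122), a variance trend (0.0466), repeated quantile normalization (0.0364) and genes above the median level (0.0275).

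Lower too were Wee1, a kinase that holds back mitosis (-0.67), Usp2, a deubiquitinase (-0.52), Nampt, an enzyme of NAD synthesis (-0.44), and Tsc22d3, a glucocorticoid-induced gene (-0.52). Leo1, a subunit of the PAF1 transcription complex, was the 1 member that rose (0.45). Coq10b (-0.29) and Tspo2 (0.03) did not pass. In all, 7 of 11 fell, 1 rose and 3 did not pass, with a median of -0.52, where 1.17% of all genes were called lower and 0.815% higher. Leaving out Ctrl A raised the limma adjusted p to 0.0566 for Wee1, 0.0707 for Tsc22d3 and 0.0626 for Leo1, leaving out mKO C raised it to 0.0786 for Nampt and 0.053 for Tsc22d3, and leaving out Ctrl B (Nampt) or mKO B (Leo1) raised it to 0.0622 and 0.0572. In the fit of the 6 arrays alone Nampt was at 0.059. With the series term, Dbp and Hlf kept their calls and the other 6 lost theirs. In that fit the differences were -0.68 for Tef, -0.14 for Wee1, -0.39 for Usp2, -0.31 for Nampt, -0.23 for Tsc22d3 and 0.53 for Leo1.

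**Figure D2:**
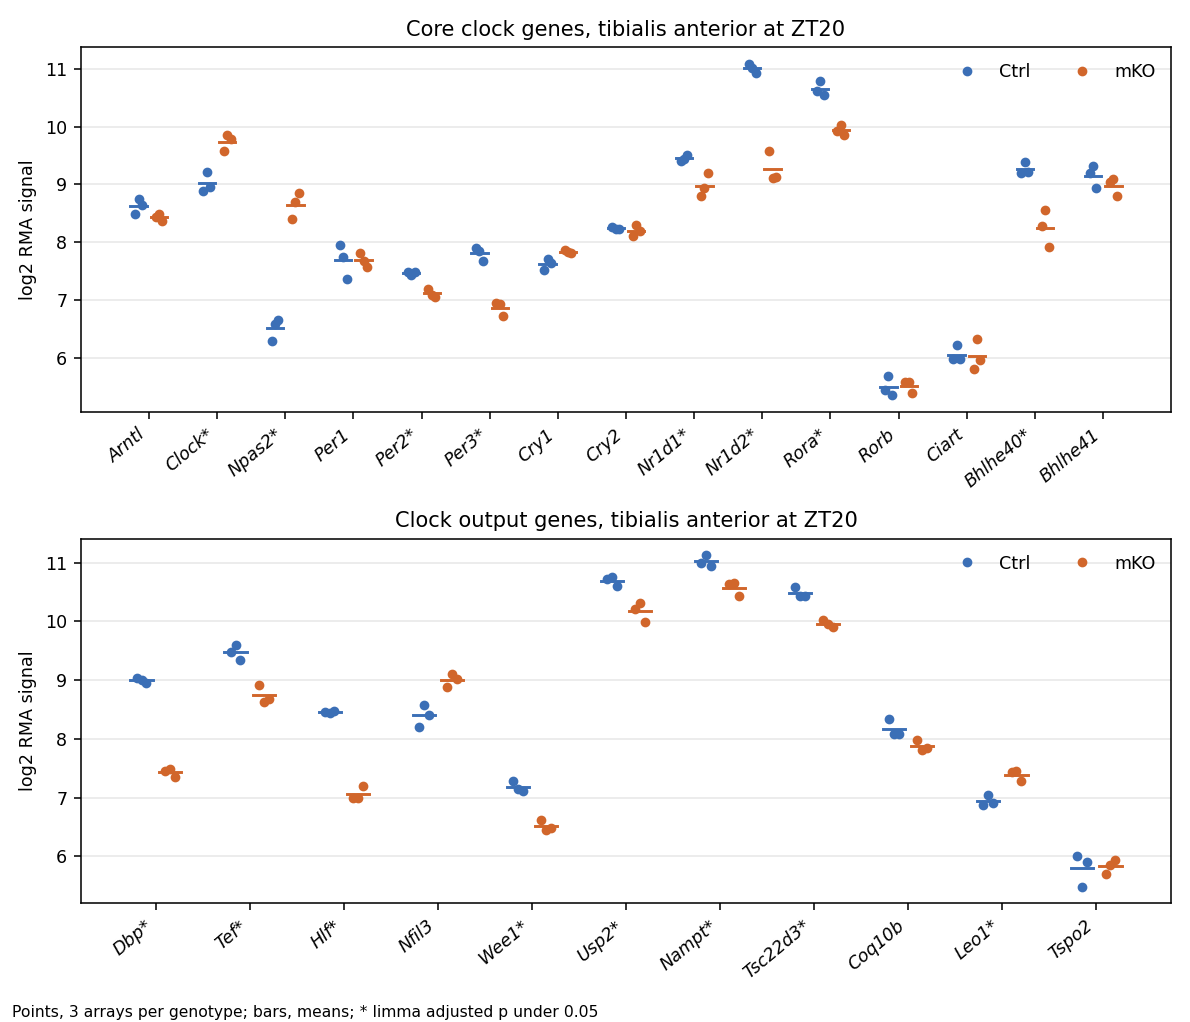
Log2 signals of the 15 core clock genes (top) and 11 clock output genes (bottom) on the 3 Ctrl (blue) and 3 mKO (orange) TA arrays of ZT20, with bars at the means and asterisks on genes at a limma adjusted p under 0.05. Npas2 and Clock lie higher in mKO, Nr1d2, Per3, Dbp and Hlf lie lower, and the points of Per1, Cry2 and Ciart overlap.

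Whether the ZT20 differences stood apart from those of the rest of the day was tested as the effect at ZT20 minus the mean effect at the other 5 times, on the same 36 arrays. Only 3 genes passed (0.0148% of 20239), beside 468 at an unadjusted p under 0.05. Of the 402 genes called at ZT20, 380 (94.53%) had the same sign at each of the other 5 times, where 4304 of all genes (21.27%) did. The times share 1 fit but no arrays.

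The first of the 3 was Pnpla3, a gene of lipid droplet metabolism. It read 8.18, 8.07 and 8.10 in mKO and 8.04, 7.97 and 7.89 in Ctrl at ZT20, a difference of 0.15 that was not called, while its differences at the other times were as small at ZT0 (0.15) and reached 0.99 at ZT8 and 1.25 at ZT12. The ZT20 effect was smaller than the mean of the others by 0.53 (SE 0.09, limma adjusted p = 0.0392). Fnip1, which encodes a partner of folliculin in AMPK and mTORC1 signalling, read 9.63, 9.64 and 9.57 against 9.53, 9.78 and 9.67 at ZT20, with the mKO arrays inside the Ctrl range. At the other times it was lower in mKO, by between -0.35 and -0.88, and the ZT20 effect stood 0.56 above their mean (SE 0.10, adjusted p = 0.0392). Nr1d1 was lower in mKO at every time, by -1.64 at ZT4 and -0.48 at ZT20, and the ZT20 effect stood 0.62 above the mean of the others (SE 0.11, adjusted p = 0.0446).

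Per1 and Ciart were next in this ranking by p among genes of the clock. Per1 differed by -1.80 at ZT8 and -1.03 at ZT12 but by 0.01 at ZT20, and Ciart by -2.13 at ZT8, -1.67 at ZT12 and -0.02 at ZT20. At ZT0 their differences were close to 0 as well (-0.04 for Per1 and 0.06 for Ciart). The differences between ZT20 and the rest were 0.82 (SE 0.17) and 1.06 (SE 0.24), with adjusted p = 0.245 and 0.398 by limma, so neither passed. With array weights Per1 did (0.0499). The other named genes of this test were Slc25a30 (-0.71), Ddit4l (-0.53), Synj2 (0.37), Champ1 (0.36) and Tagln (0.37). None of these passed (limma adjusted p from 0.265 to 0.879). In the Ctrl TA the mean of Per1 was highest at ZT12 and stood at 7.68 at ZT20. Npas2, Dbp and Nr1d2 kept large differences at every time, from 0.92 to 2.19 for Npas2, from -0.88 to -1.96 for Dbp and from -1.31 to -1.74 for Nr1d2.

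The 3 calls depended on the fit. With the replicate letter as a block, which the check of pairing allows, Pnpla3 alone passed (adjusted p = 0.0389), and Nr1d1 and Fnip1 were at 0.0916 and 0.241. Nr1d1 also missed the threshold after repeated quantile normalization (0.077). None of the 3 passed with the series term, after centring of the arrays or without the Ctrl TA array of ZT0 that carried liver transcripts (limma adjusted p = 0.0652 for Nr1d1 and 0.06 for the other two). Leaving out any 1 of the 6 arrays of ZT20 left Pnpla3 and Fnip1 above the threshold (from 0.0776 to 0.36 and from 0.0636 to 0.36), and only the fit without mKO A kept Nr1d1 (0.0406).

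**Figure D3:**
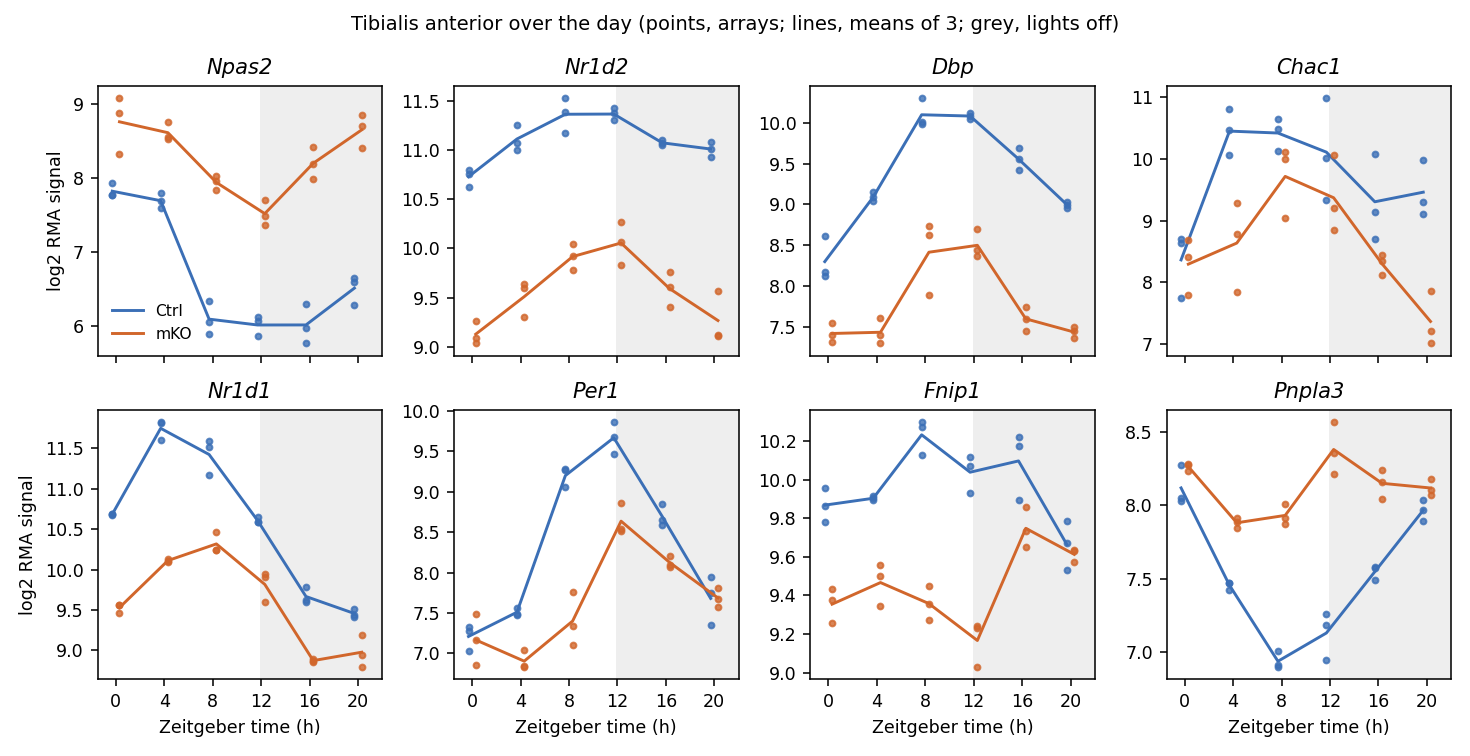
Log2 signals of 8 genes in TA over the 6 times in Ctrl (blue) and mKO (orange), with 1 point per array, lines through the means of 3 and the dark phase in grey. The genotypes stay apart all day for Npas2, Nr1d2 and Dbp, come closest at ZT0 for Chac1, and overlap at ZT20 for Per1 and Fnip1.

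The promoters of some of these genes are shown with the sequence elements that the clock is known to use. The 250 bases before each start were taken from RefSeq on GRCm38.p6, on the gene's strand, and searched on both strands for the E-box CACGTG and for the D-boxes TTATGTAA and TTACGTAA. Matches are in capitals, and only genes with a match could be shown. Per1, Ciart, Fnip1 and Coq10b are examples of a difference between genotypes that was, by mean, smaller at ZT20 than over the other times. Per3 is shown because a pair of D-boxes lies in a gene that fell. No match was found for Pnpla3, Nr1d1 and Cry2, whose differences were also smaller at ZT20 by mean.
Per1 (chr11:69098699-69098948, plus strand): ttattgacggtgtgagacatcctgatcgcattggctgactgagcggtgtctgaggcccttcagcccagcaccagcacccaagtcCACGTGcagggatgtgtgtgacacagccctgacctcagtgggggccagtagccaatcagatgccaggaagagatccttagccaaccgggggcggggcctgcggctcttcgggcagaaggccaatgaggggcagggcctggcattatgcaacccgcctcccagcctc
Ciart (chr3:95882229-95882478, minus strand): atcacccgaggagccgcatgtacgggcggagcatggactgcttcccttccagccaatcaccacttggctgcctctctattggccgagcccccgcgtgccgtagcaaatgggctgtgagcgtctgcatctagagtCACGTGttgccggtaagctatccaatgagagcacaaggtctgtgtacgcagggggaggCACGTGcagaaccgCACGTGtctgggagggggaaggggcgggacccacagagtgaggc
Fnip1 (chr11:54437929-54438178, plus strand): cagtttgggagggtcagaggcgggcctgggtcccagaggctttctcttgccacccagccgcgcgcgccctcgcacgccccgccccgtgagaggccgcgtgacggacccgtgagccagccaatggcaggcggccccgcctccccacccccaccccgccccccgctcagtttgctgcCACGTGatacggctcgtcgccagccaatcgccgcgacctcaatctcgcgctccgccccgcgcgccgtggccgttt
Coq10b (chr1:55052520-55052769, plus strand): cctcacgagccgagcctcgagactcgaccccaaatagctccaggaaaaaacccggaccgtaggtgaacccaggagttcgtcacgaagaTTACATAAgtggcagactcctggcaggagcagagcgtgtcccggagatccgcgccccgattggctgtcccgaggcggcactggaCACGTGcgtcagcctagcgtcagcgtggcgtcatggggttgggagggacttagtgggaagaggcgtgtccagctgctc
Per3 (chr4:151044666-151044915, minus strand): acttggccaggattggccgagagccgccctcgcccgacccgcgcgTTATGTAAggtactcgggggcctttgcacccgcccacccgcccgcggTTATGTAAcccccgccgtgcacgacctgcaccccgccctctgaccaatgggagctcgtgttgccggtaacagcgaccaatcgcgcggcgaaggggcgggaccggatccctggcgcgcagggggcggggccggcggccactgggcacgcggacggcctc

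Ciart held 3 E-boxes in this window and Per1, Fnip1 and Coq10b 1 each, and the D-box of Coq10b is the reverse complement of TTATGTAA. The shares that follow were taken over a longer window, which also ran past the start. A gene was counted if any of its promoters held a match. Of 15651 tested genes with a promoter in the RefSeq table (19186 promoters), 9.47% held an E-box and 1.12% a D-box. Among the 188 called lower with a promoter (261 promoters), 27 (14.4%) held an E-box and 7 (3.72%) a D-box. Among the 131 called higher (171 promoters), 12 (9.16%) held an E-box and 0 a D-box. More promoters per gene give more sequence to match, and the shares were not corrected for this. Of 13 core clock genes 4 held an E-box (Per1, Cry1, Ciart and Bhlhe41) and 1 a D-box, and of 10 clock output genes 2 held an E-box (Tef and Coq10b). These are matches of letters in a short window and were not tested.

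The largest rise of all genes was that of Cdkn1a, which encodes p21, an inhibitor of the cell cycle. It read 10.63, 11.19 and 11.06 in mKO and 7.91, 8.09 and 7.74 in Ctrl, 8.26-fold higher (3.05, SE 0.22, limma adjusted p = 1.27e-10). Every mKO array lay more than 2 log2 units above every Ctrl array. It was the only 1 of 18 cell cycle inhibitors and p53 target genes that was called, and the list had a median of -0.02. Prss55, a serine protease known mainly from the testis, read 9.30, 9.29 and 9.11 against 6.43, 6.69 and 6.21, 6.94-fold higher (2.79, SE 0.22, adjusted p = 9.3e-10). Olfm1 (1.34), which encodes a secreted olfactomedin, the phosphatase gene Dupd1 (1.27) and the glutathione transferase gene Gstm7 (1.40) also rose. All 5 of these genes differed in the same direction at each other time and kept their calls with the series term.

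Some genes typical of slow fibres and the heart were higher in this fast muscle. Casq2, the cardiac and slow-fibre calsequestrin that stores calcium, read 10.06, 10.23 and 10.27 in mKO and 8.20, 8.68 and 8.30 in Ctrl, 3.46-fold higher (1.79, SE 0.17, limma adjusted p = 2.93e-08). Actc1, cardiac alpha-actin, read 12.43, 12.70 and 12.93 against 11.79, 11.51 and 10.74, 2.54-fold higher (1.34, SE 0.26, adjusted p = 0.00177), with a wide spread among Ctrl arrays. Ankrd2, a stretch-responsive protein of the sarcomere, rose by 1.37 (SE 0.32, adjusted p = 0.0125). Of 15 slow-fibre and cardiac-type genes these 3 rose and 0 fell, with a median of 0.20. Over all genes 0.815% were called higher and 1.17% lower. Differences in the list ran from -0.42 to 1.82, and the largest rise was not called. By mean, 13 of the 15 were higher in mKO, beside 11243 of all 20239 genes. Myh7, the slow myosin heavy chain, read 7.41 against 7.14 and did not pass. Of 15 fast-fibre genes none was called, and the median was -0.01.

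The genes of calcium handling that were called were all higher, while those listed for excitability and ion transport were called in both directions. Mrln, which encodes myoregulin, an inhibitor of the calcium pump of the sarcoplasmic reticulum, read 11.24, 10.97 and 11.17 against 9.92, 9.85 and 9.87, 2.38-fold higher (1.25, SE 0.10, limma adjusted p = 7.98e-10). Cacna1s, the L-type calcium channel that senses voltage in muscle, rose by 0.28 (adjusted p = 0.0104, and 0.0554 with the replicate block). They were the 2 called of 20 genes of calcium handling. Car3, carbonic anhydrase 3, is an enzyme gene that was put on the list of excitability and ion transport. It read 12.21, 11.86 and 11.94 in mKO and 13.67, 13.66 and 13.60 in Ctrl, 3.12-fold lower (-1.64, SE 0.17, limma adjusted p = 8.8e-08). Nkain1, a partner of the sodium pump, read 8.15, 8.10 and 8.10 against 9.87, 9.72 and 9.56, 3.02-fold lower (adjusted p = 1.09e-10). The sodium-proton exchanger gene Slc9a2 was higher by 0.77. In all, 3 of the 15 genes listed for excitability and ion transport, the enzyme gene Car3 among them, fell and 1 rose. Of all genes, 1.17% were called lower and 0.815% higher.

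At the neuromuscular junction, Chrnb1, the beta subunit of the acetylcholine receptor, was 2.11-fold higher (9.55 ± 0.15 against 8.47 ± 0.10, limma adjusted p = 1.42e-06). Hdac4, a deacetylase of the denervation response, was lower by 0.40 (adjusted p = 0.0449, and 0.142 with the replicate block), and the other 17 of 19 genes of that list did not pass. Of 10 genes of the dystrophin complex, the syntrophin Sntb1 (-0.67) and the sarcospan gene Sspn (-0.39) fell, where 1.17% of all genes were called lower. Among 24 genes listed for myogenesis and fibre type, Tead4, a transcription factor of the Hippo pathway, rose (9.35, 9.61 and 9.45 against 8.22, 8.46 and 8.35, limma adjusted p = 4.73e-06). Aebp1, a repressor also known from connective tissue that was put on this list, fell. Aebp1 read 8.23, 8.22 and 8.24 in mKO and 9.77, 9.81 and 9.65 in Ctrl, 2.86-fold lower (-1.52, SE 0.09, adjusted p = 6.38e-12), with the smallest p of all genes.

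Among 22 genes of myosin light chain kinases and the stretch response, 2 rose and 3 fell. Over all genes 0.815% were called higher and 1.17% lower. Differences in that list ran from -1.11 to 1.82, and the largest rise was not called. Xirp1, an actin-binding protein of muscle repair, rose 2.54-fold (11.23 ± 0.31 against 9.88 ± 0.30, adjusted p = 0.00826 by limma) and Klhl40, a stabiliser of thin filaments, rose by 0.65. Mylk4, a myosin light chain kinase, read 12.24, 12.09 and 12.04 against 13.28, 13.23 and 13.16, 2.14-fold lower (-1.10, adjusted p = 1.28e-08), and Asb15, a ubiquitin ligase adaptor of muscle, fell by 0.75. Of 17 immediate early genes Atf3 alone was called. This stress-induced transcription factor read 8.86, 9.50 and 8.62 against 7.23, 7.37 and 7.83 (1.51, SE 0.35, adjusted p = 0.0146, and 0.056 with the replicate block). Several of these calls were lost in fits without 1 array, which called fewer genes over all, from 254 to 293 instead of 402. The limma adjusted p in these fits reached 0.133 for Atf3 (lost without mKO B, Ctrl A or Ctrl B), 0.0792 for Xirp1 (mKO B or Ctrl A) and 0.12 for Klhl40 (mKO B or Ctrl B). Among the genes of the preceding paragraphs it reached 0.104 for Ankrd2 (mKO B, mKO C, Ctrl A or Ctrl B), 0.117 for Cacna1s (mKO B, mKO C or Ctrl C), 0.357 for Hdac4 (all but mKO C), 0.168 for Sntb1 (mKO A, mKO B, Ctrl A or Ctrl B) and 0.171 for Sspn (mKO B, mKO C, Ctrl B or Ctrl C). In the fit of the 6 arrays alone Klhl40, Cacna1s, Hdac4, Sntb1 and Sspn missed the threshold (0.0672, 0.183, 0.152, 0.0562 and 0.0571), and after centring of the arrays Cacna1s and Hdac4 did (0.0585 and 0.0518). Hdac4 also missed it after repeated quantile normalization (0.0548) and without the liver-bearing Ctrl array of ZT0 (0.0507).

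The genes of glucose uptake and use that were called were all lower. Slc2a3, the glucose transporter GLUT3, read 6.40, 6.21 and 6.02 in mKO and 7.32, 7.43 and 7.29 in Ctrl, 2.2-fold lower (-1.14, SE 0.16, limma adjusted p = 1.86e-05). Tbc1d1, which holds back the traffic of glucose transporters to the membrane, read 9.78, 10.03 and 9.78 against 10.62, 10.68 and 10.69, 1.74-fold lower (adjusted p = 0.000693). With Pgm1 and Ppp1r3a, which act in glycogen metabolism, 4 of the 21 listed for glucose uptake and glycogen fell and 0 rose, with a median of -0.10. Over all genes 1.17% were called lower and 0.815% higher. Of 15 glycolysis genes, Pfkm, muscle phosphofructokinase, was called, lower by 0.24 (adjusted p = 0.0286, and 0.0608 with the replicate block). Of 12 genes of pyruvate dehydrogenase and its regulators, Pdp1, a phosphatase that activates the complex, fell by 0.40 (adjusted p = 0.00219). Among 24 genes of insulin and IGF signalling, Pik3ca rose by 0.50 and Akt1 fell by 0.48.

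Fat metabolism held the largest fall of all genes. Ces1d, a carboxylesterase that hydrolyses triglycerides, read 5.92, 6.20 and 6.24 in mKO and 9.30, 9.21 and 8.70 in Ctrl, 7.71-fold lower (-2.95, SE 0.26, limma adjusted p = 1.11e-08). Dgat2, which makes triglycerides, was 2.27-fold lower (8.13 ± 0.09 against 9.31 ± 0.08, adjusted p = 0.000212), and Plin5, a lipid droplet protein of oxidative tissue, was 1.53-fold higher (adjusted p = 0.0305). With Gpam, 3 of 24 genes of lipid synthesis, storage and lipolysis fell and 1 rose, at a median of 0.00. Over all genes 1.17% were called lower and 0.815% higher. Of 25 genes of fatty acid uptake and oxidation 3 rose and 0 fell: Etfdh by 0.39, Acadm by 0.37 and Slc27a1, a fatty acid transporter. In the citrate cycle and respiratory chain none of 28 genes was called, with 4 at an unadjusted p under 0.05. Of these, 27 were higher in mKO by mean and 14 did not overlap, with differences from -0.02 to 0.31 and a median of 0.11 beside 0.02 over all genes. Of all 20239 genes, 11243 were higher by mean and 18.2% did not overlap in either direction.

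Amino acid and polyamine genes moved both ways. Slc1a1, a glutamate transporter, read 7.89, 8.27 and 7.95 against 6.75, 6.81 and 6.80, 2.37-fold higher (adjusted p = 5.06e-07 by limma), and Gpt, alanine aminotransferase, rose by 0.61. Odc1, the first enzyme of polyamine synthesis, was 1.98-fold lower (adjusted p = 0.00102) and Smox, spermine oxidase, fell by 0.63. In total 2 of 23 rose and 2 fell, where 0.815% of all genes were called higher and 1.17% lower. Without 1 array the calls of Pfkm, Etfdh, Acadm, Plin5 and Smox were lost whichever of the 6 was left out, with adjusted p up to 0.179, 0.157, 0.2, 0.158 and 0.209, and that of Akt1 was lost without mKO B or Ctrl C (0.0531 and 0.0628). The calls of Gpam and Slc27a1 were also lost without any 1 array (up to 0.194 and 0.284) and that of Pgm1 without any but Ctrl C (up to 0.145). With the replicate block Gpam was at 0.111. Pfkm and Etfdh also missed the threshold after centring of the arrays (0.0971 and 0.0973), Pfkm in the fit of the 6 arrays alone (0.224), and Acadm after centring (0.0627), after repeated quantile normalization (0.0632) and in the fit of the 6 arrays alone (0.0562).

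Several other genes were among the 12 largest falls. Chac1, which degrades glutathione and is induced by amino acid shortage, read 7.22, 7.01 and 7.87 in mKO and 9.10, 9.98 and 9.30 in Ctrl, 4.27-fold lower (-2.10, SE 0.41, limma adjusted p = 0.00266). The groups were more than 1 log2 unit apart, while at ZT0 the difference was -0.07. The difference between ZT20 and the other times, -1.23, did not pass (SE 0.45). Casp12, a caspase of the endoplasmic reticulum, read 6.78, 6.79 and 6.61 against 8.29, 8.57 and 8.46, 3.29-fold lower. Mettl21e, a lysine methyltransferase of muscle, read 5.61, 4.87 and 5.09 against 7.17, 6.89 and 6.64, 3.27-fold lower. Cntfr, the receptor of ciliary neurotrophic factor, was 3.22-fold lower, Slc25a30, a mitochondrial carrier, 3.1-fold lower, and Ifit3b, an interferon-induced gene, 3.11-fold lower.

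Trim12a, a gene of the tripartite motif family, differed from these in how it varied among animals. It read 2.63, 2.99 and 2.89 in mKO and 4.91, 5.41 and 5.11 in Ctrl (-2.31, SE 0.60, limma adjusted p = 0.0349). At the other times its mean difference was -0.20, and its signal fell into a low and a high set of animals. All 10 BM2 and BM2* animals of the other times were low, from 2.69 to 3.04, whereas of the BM3 animals of those times 4 of 9 Ctrl and 2 of 11 mKO were above 4. The 3 Ctrl animals of ZT20 were of BM3 and high, and the 3 mKO animals of BM2 and low. With the series term the difference was -0.95 (adjusted p = 0.866), and leaving out any 1 of the 6 arrays also lost the call (from 0.0828 to 0.161).

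Among the genes named outside the clock lists, the calls lost with the series term, without a change of sign, were those of Ighm, Atf3, Ankrd2, Xirp1, Klhl40, Plin5, Acadm, Etfdh, Slc27a1, Pik3ca and Cacna1s among the higher genes. Among the lower genes they were Trim12a, Casp12, Ifit3b, Tbc1d1, Pgm1, Ppp1r3a, Pfkm, Pdp1, Dgat2, Gpam, Odc1, Smox, Akt1, Hdac4, Sntb1, Sspn, Asb15, Mical2, Mettl21c, Lancl1, Kansl1l, Fn1 and Mreg. Some of these differences were smaller in size with the term, as for Sspn (-0.09), Kansl1l (-0.25) and Plin5 (0.34). Others were larger in size, as for Atf3 (1.76), Odc1 (-1.14) and Tbc1d1 (-0.88). Kept were the calls of, among others, Cdkn1a, Casq2, Actc1, Mrln, Chrnb1, Ces1d, Car3, Nkain1, Aebp1, Slc2a3 and Chac1.

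**Figure D4:**
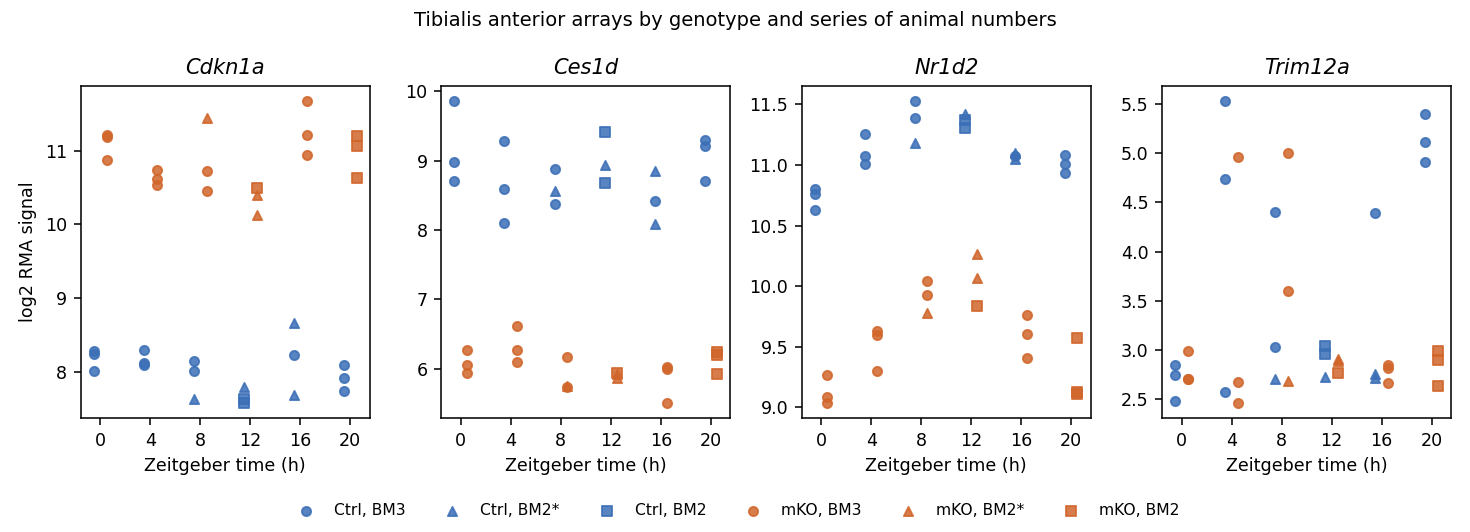
Log2 signals of 4 genes on all 36 TA arrays against Zeitgeber time, coloured by genotype, with the series of the animal's number as circles (BM3), triangles (BM2*) and squares (BM2). Cdkn1a, Ces1d and Nr1d2 separate the genotypes at every time, and at ZT20 genotype and series coincide. Trim12a is above 4 on some BM3 arrays of both genotypes and on no BM2 or BM2* array.

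Markers of other cell types were set beside these changes. None of the markers of adipocytes (8 measured), endothelium (9), fibroblasts and tendon (11), macrophages (10), erythroid cells (3), Schwann cells (5), smooth muscle (6) or satellite cells (6) was called, nor any of 24 liver transcripts, which had mean levels of 5.57 to 6.05 on the mKO arrays and 5.46 to 5.74 on the Ctrl arrays. The macrophage markers were all lower in mKO by mean, 6 of 10 without overlap, with a median of -0.40. Over all genes 18.2% did not overlap and the median was 0.02. Their mean signal ran from 6.84 to 6.98 on the mKO arrays and from 7.10 to 7.79 on the Ctrl arrays. Lyz2, the lysozyme of macrophages, read 8.71 against 9.54 (limma adjusted p = 0.159) and Adgre1, a surface receptor of macrophages, 5.96 against 6.61 (0.149). The part of macrophages in the falls was not tested. Of the 11 fibroblast and tendon markers 1 was higher in mKO by mean, with a median of -0.08 and 2 without overlap. Of the 9 endothelial markers 8 were higher, with a median of 0.03 and 1 without overlap. The part of these cells was not tested either. Of 11 lymphocyte and granulocyte markers 1 was called: Ighm, the heavy chain of immunoglobulin M, read 11.59, 11.61 and 11.57 in mKO and 10.48, 9.91 and 9.64 in Ctrl, 2.99-fold higher (1.58, SE 0.26, adjusted p = 0.000234). The median of that list was 0.07.

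Genes beside Myl1, the gene whose promoter drives Cre, were counted as well, since Cre is present in mKO animals only. Myl1 itself read 13.76 ± 0.04 against 13.80 ± 0.01 and was not called. Of the 20 tested genes on either side of it, 4 of 40 fell and 0 rose: Mreg (-0.84), Lancl1 (-0.68), Fn1 (-0.57) and Kansl1l (-0.52). Mreg, Lancl1 and Kansl1l were known to differ from earlier results of these data. Their differences ran from -0.78 to -0.94 for Mreg, from -0.49 to -0.68 for Lancl1 and from -0.38 to -0.64 for Kansl1l over the 6 times. The call of Fn1 was lost without any 1 array (up to 0.292) and with the replicate block (0.053). The call of Kansl1l was lost without any 1 array except mKO B (limma adjusted p up to 0.207) and after centring of the arrays (0.087). The share called around Myl1 was not tested against the 1.99% of all genes.

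The slow SOL of the same 6 animals allowed the TA effects to be set beside those of another muscle. In SOL 211 genes (1.04%) were called at ZT20. Of the TA calls 117 were also called in SOL with the same sign, which is 29.1% of the TA calls and 55.45% of the SOL calls, and 1 was called with the opposite sign. The test of the difference between the muscles, within animals, called 37 genes (0.183%). Cdkn1a rose in both (3.05 in TA, 2.46 in SOL), and its difference did not pass (limma adjusted p = 0.524).

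Clock genes among the 37 were Npas2 and Nr1d2. Npas2 rose by 2.14 in TA and 1.04 in SOL (difference 1.10, SE 0.19, limma adjusted p = 0.00445), and Nr1d2 differed by -1.74 in TA and -1.04 in SOL (-0.70, SE 0.13, adjusted p = 0.00793). Dbp differed by -1.56 and -0.72, and the difference of -0.84 missed the threshold (0.0787). Car3 had the smallest p, with -1.64 in TA against 0.03 in SOL (adjusted p = 8.67e-08). Ces1d (-2.95 against -0.37), Slc25a30 (-1.63 against -0.15), Aebp1 (-1.52 against -0.36), Nkain1 (-1.60 against -0.57), Chac1 (-2.10 against -0.80), Slc2a3 (-1.14 against -0.13) and Odc1 (-0.98 against -0.02) were lower by more in TA.

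Mical2, an actin oxidase, differed by -0.95 in TA and 0.27 in SOL (adjusted p = 3.12e-05 by limma). Mettl21c, a methyltransferase of muscle, was the gene called in opposite directions, lower in TA (9.15, 9.12 and 8.92 in mKO against 10.21, 10.09 and 10.23 in Ctrl, -1.11) and higher in SOL by 0.70 (adjusted p of the difference = 0.000282). Prss55 (2.79 against 0.73), Casq2 (1.79 against 0.94), Dupd1 (1.27 against 0.25), Ttll7, a tubulin ligase (1.18 against 0.28), and Slc8a1, a sodium-calcium exchanger (1.15 against -0.05), rose by more in TA. Cmbl differed by 0.24 in TA, without a call, and by -0.96 in SOL. Mylk4 fell by more in SOL (-2.33) than in TA (-1.10), with an adjusted p of 0.0448 for the difference. With the series term 6 of the 37 kept their calls, Car3, Prss55, Slc25a30, Aebp1 and Dupd1 among them.

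The fit of the 6 animals alone kept 18 of the 37. Among the named genes it lost Nr1d2 (limma adjusted p = 0.172), Casq2 (0.113), Ces1d (0.108), Slc2a3 (0.0685), Odc1 (0.162), Aebp1 (0.113) and Ttll7 (0.0526). With the replicate block Casq2, Slc2a3 and Mylk4 missed the threshold (0.0643, 0.069 and 0.106), and Mylk4 also did with a variance trend (0.0592) and after centring (0.0646). Leaving out any 1 animal lost Chac1 (up to 0.168) and Mylk4 (up to 0.327), and any but Ctrl B lost Casq2 (up to 0.266). Npas2 and Nr1d2 were lost without mKO C or Ctrl A (up to 0.0718 and 0.108), and Slc2a3 without these or Ctrl B (up to 0.161). Odc1 was lost without mKO A, mKO C, Ctrl B or Ctrl C (up to 0.159).

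**Figure D5:**
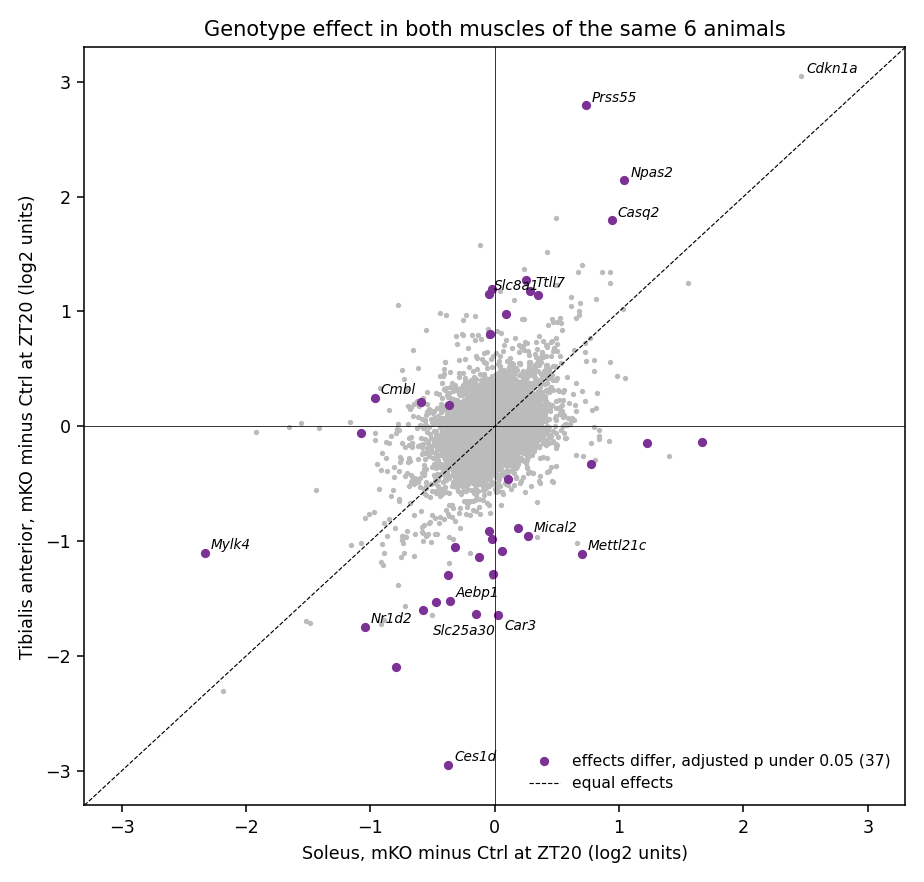
The difference mKO minus Ctrl at ZT20 in log2 units for 20239 genes, in SOL on the horizontal and in TA on the vertical axis, with equal effects on the dashed line. The 37 genes whose effects differ between the muscles are in purple, with Ces1d, Car3 and Slc25a30 near 0 in SOL and far below 0 in TA, and Mylk4 farther from 0 in SOL.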

How the data were processed

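The deposited table holds log2 signals of 72 Affymetrix whole-transcript arrays, made by the authors with RMA, per the submitters' processing notes, with no version given. Its values were used as deposited. Of 21225 probe sets, 20239 carried 1 gene symbol in the platform annotation and were tested, and 986 unnamed ones were not. All 20239 matched the RefSeq gene table of GRCm38.p6 by Entrez number. Genotype, muscle, time and letter came from the labels. The labels for age and sex stand under each other's tag and were read by their content. The tests were limma 3.58.1 in R 4.3.3 (lmFit, eBayes), with 12 groups of genotype and time over all 36 TA arrays, or over the differences TA minus SOL of the same animals, Benjamini-Hochberg adjustment and a threshold of 0.05. The scripts were tested on simulated data. Medians, intervals (95%) and SE come from the same fit. Per array, the number of arrays limits the precision, and array medians over the series ran from 6.67 to 6.84.

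The letters A to C recur in both genotypes. Deviations from the group mean correlated between same-lettered mKO and Ctrl TA arrays of ZT20 with r = 0.161, 0.200 and 0.168, all over 0.1, so the letter was used as a block in a second fit, and the blocked value is given where it changed a call. The letters come from the sample titles, which do not say what they mark. The alternatives were the 6 arrays alone, the block, the animal series, array weights, a variance trend, repeated quantile normalization, median centring, a filter on low levels, and leaving out single arrays.

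The comparison, the 36 lists of genes (25 of pathways and 11 of markers) and the rule for naming genes were chosen with earlier results of these data known. Named are all core clock and output genes, the 12 largest calls in each direction, up to 2 calls per direction of every other list, and the 10 smallest p of each of the other tests between times and between muscles, with 5 genes known from earlier results. Gpam, Pgm1, Ppp1r3a, Slc27a1, Fn1, Myh7, Lyz2 and Adgre1 were named after their values were seen. Of the 402 called genes, 11 had only a model name and 59 were in any list. One of the 5 earlier genes, Nnt, varied among animals of both genotypes (9.46, 8.18 and 9.54 in mKO, 8.90, 9.09 and 7.72 in Ctrl). Genes absent from the table were not analysed here.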

Additional observations from a re-analysis of the deposited data

Results flagged for a closer look

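The effect of the knockout in TA at ZT20 differed from the mean effect of the other times for 3 genes, by a limma test of the difference itself: Nr1d1 (0.62) and Fnip1 (0.56), whose difference from Ctrl was less negative at this hour, and Pnpla3 (-0.53), whose difference was less positive. As given above, these calls were lost under several fits.

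The effect in TA differed from that in SOL of the same animals for 37 genes by a limma test of the difference. Among the named genes the difference, TA minus SOL, was above 0 for Prss55 (2.06), Mylk4 (1.23), Cmbl (1.21), Slc8a1 (1.20), Npas2 (1.10), Dupd1 (1.02), Ttll7 (0.90) and Casq2 (0.85). It was below 0 for Ces1d (-2.57), Mettl21c (-1.81), Car3 (-1.67), Slc25a30 (-1.48), Chac1 (-1.30), Mical2 (-1.22), Aebp1 (-1.16), Nkain1 (-1.02), Slc2a3 (-1.01), Odc1 (-0.96) and Nr1d2 (-0.70). Cmbl and Mylk4 stand among those above 0 because they were lower in SOL, and Mettl21c was called in both muscles with opposite signs. No formal test for outlying samples was run, and the main fit kept every array. Single arrays of ZT20 and the liver-bearing Ctrl array of ZT0 were left out in alternative fits only.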

How the results depend on the processing

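The count of 402 genes was within 1.5 times under the replicate block (373), the 6 arrays alone (333) and a variance trend (470). It was also within 1.5 times under repeated quantile normalization (481), centring (334) and without the liver-bearing Ctrl array of ZT0 (401). The filter to genes above the median level called 524, but of 10119 tested genes only, a set that held 364 of the 402. Over all tested genes the count was 92 with the series term, 770 with array weights and from 254 to 293 without 1 array. The 3 genes differing from the other times became 1 with the block, 4 with array weights, 2 with repeated quantile normalization, 0 with the series term, 0 with centring, 0 without the liver-bearing array and from 0 to 1 without 1 array, where 468, and with the series term 1285, had an unadjusted p under 0.05. No fit of this difference to the 6 arrays alone exists. In SOL 211 became 120 in the 6 arrays alone, 10 with the series term and from 125 to 153 without 1 array. The 37 genes differing between muscles became 23 in the 6 animals alone, 6 with the series term, 56 with array weights and from 16 to 26 without 1 array. The series term also raises the SE, and what else lowers its counts was not tested. Centring and the other scalings moved no split of higher against lower TA calls by over 10 percentage points except the series term (51 higher, 41 lower).

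Of 71 named genes called in TA, none reversed, 31 passed in every alternative that could be run for them (28 of them in all 15) and 17 more in all but the series term. The block lost Atf3, Pfkm, Cacna1s and Hdac4, and also Gpam and Fn1, in TA at ZT20, Nr1d1 and Fnip1 in the difference between times, and Casq2, Slc2a3 and Mylk4 in that between muscles. Of the 19 named genes that were not called, 8 reversed in at least 1 alternative. With the series term these were Arntl (0.0074), Cry2 (0.0396), Rorb (-0.0679), Coq10b (0.0286) and Tspo2 (-0.17). With array weights they were Per1 (-0.0288) and Rorb (-0.0047), with centring Per1 (-0.0054), and with repeated quantile normalization Rorb (-0.0163) and Tspo2 (-0.0028). Without 1 array the values ran across 0 for Per1 (from -0.16 to 0.14), Cry2 (from -0.0939 to 0.0035), Rorb (from -0.0503 to 0.12), Ciart (from -0.16 to 0.0961), Tspo2 (from -0.12 to 0.14) and Fnip1 (from -0.12 to 0.0106). The 3 arrays a group limit the precision.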

Other observations

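Other called genes, chosen after their values were seen, describe further sides of the TA at ZT20. Among genes of the contractile apparatus, Myom3, a myomesin of the M-band, was higher by 1.23 and Mybph, a myosin-binding protein, by 1.19 (limma adjusted p = 0.00982 and 0.000473). Atp1b4, a muscle protein related to the sodium pump, was higher by 1.23 (2.44e-05). Stim1, the calcium sensor of the reticulum, and Mcu, the mitochondrial calcium channel, were each higher by 0.35 (0.00258 and 0.026). Tnfrsf12a, the receptor of TWEAK, was higher by 1.02 (0.00869), and Thra, a thyroid hormone receptor, by 0.53 (5.25e-05).

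Lower were Maob, a monoamine oxidase (-1.53, limma adjusted p = 1.35e-05), Sorbs3, a focal adhesion adaptor (-1.29, 6.1e-10), Itga4, an integrin subunit (-1.09, 2.03e-05), the ion cotransporter Slc12a2 (-1.05, 3.78e-08), the Wnt receptor Fzd4 (-1.0, 7.99e-05) and the Wnt antagonist Frzb (-0.96, 0.001). Herpud1 (-0.56, 0.000845) and Xbp1 (-0.34, 0.0274), of the unfolded protein response, were lower as well. With the identification series as a term Atp1b4, Mybph, Maob, Sorbs3, Slc12a2 and Fzd4 kept their calls, and the other genes of this section did not. Without 1 array the calls of Myom3 (lost without mKO B, mKO C, Ctrl A or Ctrl B, limma adjusted p up to 0.123), Mcu (all but Ctrl B, 0.192), Tnfrsf12a (mKO B or Ctrl A, 0.0821) and Xbp1 (mKO A, mKO C, Ctrl A or Ctrl B, 0.21) were lost.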
